A study of Mus musculus with 6 samples.

Results

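Renal gluconeogenesis and ammonia production were followed through 9 genes of a kidney RNA-seq count table of 32285 genes. The genes were taken by name and not by a threshold on their values, as 5 genes of glucose output (Pck1, Pck2, Fbp1, G6pc and Slc37a4) and 4 genes of glutamine and glutamate handling (Glud1, Glul, Slc38a3 and Slc1a1). They were chosen with earlier results of these data known. All 9 were in the table, and all 9 passed the filter on low counts that left 15955 genes to be tested. The samples were whole kidneys of 100-week-old mice, described by the submitters as females, all of them carriers of a mutation in TrnE, which encodes the mitochondrial tRNA for glutamate. The load gives the percentage of mutant copies among the mitochondrial DNA. The genotype labels give it as the load of the mouse, and do not say whether it was measured in the kidney. In the high-load group 3 kidneys came from mice labelled with loads of 75%, 75% and 80%. In the control group 3 kidneys came from mice labelled with loads of 10%, 5% and 15%. The controls were therefore low-load carriers and not mutation-free animals. The base change of the mutation and the strain are not given in the labels, and the kidneys are called high-load 1 to 3 and control 1 to 3.

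The proximal tubule makes new glucose, mainly from lactate, glutamine and glycerol. Phosphoenolpyruvate carboxykinase turns oxaloacetate into phosphoenolpyruvate, fructose bisphosphatase and glucose-6-phosphatase carry out the later steps that glycolysis cannot reverse, and free glucose leaves the cell towards the blood. The same cells take up glutamine, release its nitrogen as ammonium for acid excretion, and pass the remaining carbon through glutamate and 2-oxoglutarate into gluconeogenesis. Glutamate dehydrogenase releases nitrogen, whereas glutamine synthetase binds ammonium again.

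Promoter sequence from RefSeq (build GRCm38.p6) was at hand for 8 of the 9 genes, all but Slc38a3. Pck1 and Pck2 are shown because these isoenzymes, cytosolic and mitochondrial, stood on opposite sides of 0 in the comparison, and G6pc because its highest high-load kidney exceeded its lowest by the largest ratio among the 9. Each stretch lies directly upstream of the RefSeq start, on the plus strand, 5′ to 3′. Capitals mark TTACGTCA, a cyclic AMP response element known from Pck1, in Pck1, and TATAAA, the TATA box, in G6pc. No letters are capitalised in Pck2, where no searched motif was found.
Pck1, chr2:173152923-173153072: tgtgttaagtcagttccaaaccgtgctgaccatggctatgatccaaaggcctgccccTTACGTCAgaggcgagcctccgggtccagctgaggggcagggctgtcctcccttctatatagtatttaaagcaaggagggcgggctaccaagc
Pck2, chr14:55540116-55540265: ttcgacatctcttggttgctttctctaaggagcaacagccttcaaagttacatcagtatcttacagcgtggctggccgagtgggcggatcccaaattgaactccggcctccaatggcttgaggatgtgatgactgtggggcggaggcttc
G6pc, chr11:101367566-101367715: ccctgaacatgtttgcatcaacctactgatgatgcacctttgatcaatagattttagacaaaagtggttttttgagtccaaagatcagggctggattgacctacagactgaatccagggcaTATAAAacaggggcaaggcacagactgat

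Motifs were searched on both strands of windows that ran from 250 bases before to 50 bases after a RefSeq start. TTACGTCA began 93 bases before the Pck1 start and was present in 0.499% of 32851 such windows over all genes. TATAAA began 29 bases before the G6pc start, also lay in 1 window of Slc37a4 (32 bases before the start), and was present in 13.6% of all windows. The other motifs searched had no match in the windows of the 8 genes. They were TGACGTCA (1.79% of all windows), the FOXO motif TGTTTAC (3.65%), the HNF4 motifs CAAAGTCCA (0.475%) and CAAAGGTCA (0.478%), and the ATF4 with C/EBP motif TGATGNAAT (0.965%). None of these motifs overlaps another in the printed stretches. A match describes the letters of the window only.

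2 kidneys stood apart, and both bear on the 9 genes. Control 2 went against the description of the animals as females. It had 3 counts of Xist, the RNA that coats the inactive X chromosome, against 14002 to 17028 in the other 5 libraries. It also had 3210 counts of the Y-linked genes Ddx3y, Eif2s3y, Kdm5d and Uty, which had 0 counts in the other 5 libraries. Slc7a13, an amino acid carrier known to be higher in male mouse kidney, had 1943 counts in control 2 and 3 to 24 elsewhere. These sex-related genes were picked after their values were seen, and results are given with and without control 2. Whether this library belongs to the animal its label names was not tested. High-load 1 had the lowest level of proximal tubule markers, as described with the cell type markers further on. Total counts were 17449270 to 18865997 per library.

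In high-load kidneys, transcript levels of 8 of the 9 genes had negative fold changes, and Pck2 alone had a positive one. The median log2 fold change of the 9 genes was -0.91, against 0.0067 over all 15955 genes, and it was -0.93 without control 2 and -0.59 without high-load 1. Of the 9 genes, 0 passed an adjusted p of 0.05 in edgeR's quasi-likelihood test with Benjamini-Hochberg adjustment, a threshold that 0.0188% of all genes passed. At an unadjusted p under 0.05, 6 of the 9 were lower (10.2% of all genes were) and 1 was higher (14% of all genes were). Without control 2 these counts were 4 lower, against 6.25% of all genes, and 1 higher, against 9.84%. Without high-load 1 they were 5 lower, against 8.09%, and 1 higher, against 10.6%. With both libraries left out they were 5 lower, against 7.71%, and 1 higher, against 9.08%. Without high-load 2, 8 were lower at an unadjusted p under 0.05, against 13.2%, and 2 passed an adjusted p of 0.05 in either direction, a threshold that 4.96% of all genes then passed.

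The groups did not overlap for 6 of the 9 genes. Every high-load kidney was below every control for 5 genes, as for 15.8% of all genes, and above every control for Pck2, as for 17.1% of all genes. Without control 2, 7 genes were lower without overlap, as were 20.9% of all genes, and Pck2 was higher, as were 21.6%. DESeq2, run on the same counts, called 5 of the 9 at an adjusted p under 0.05. Pck1, Glud1, Slc38a3 and Slc1a1 were lower (3.77% of all genes were) and Pck2 was higher (6.47% were). In bulk tissue, fewer cells of a type and less RNA per cell cannot be told apart.

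**Figure D1:**
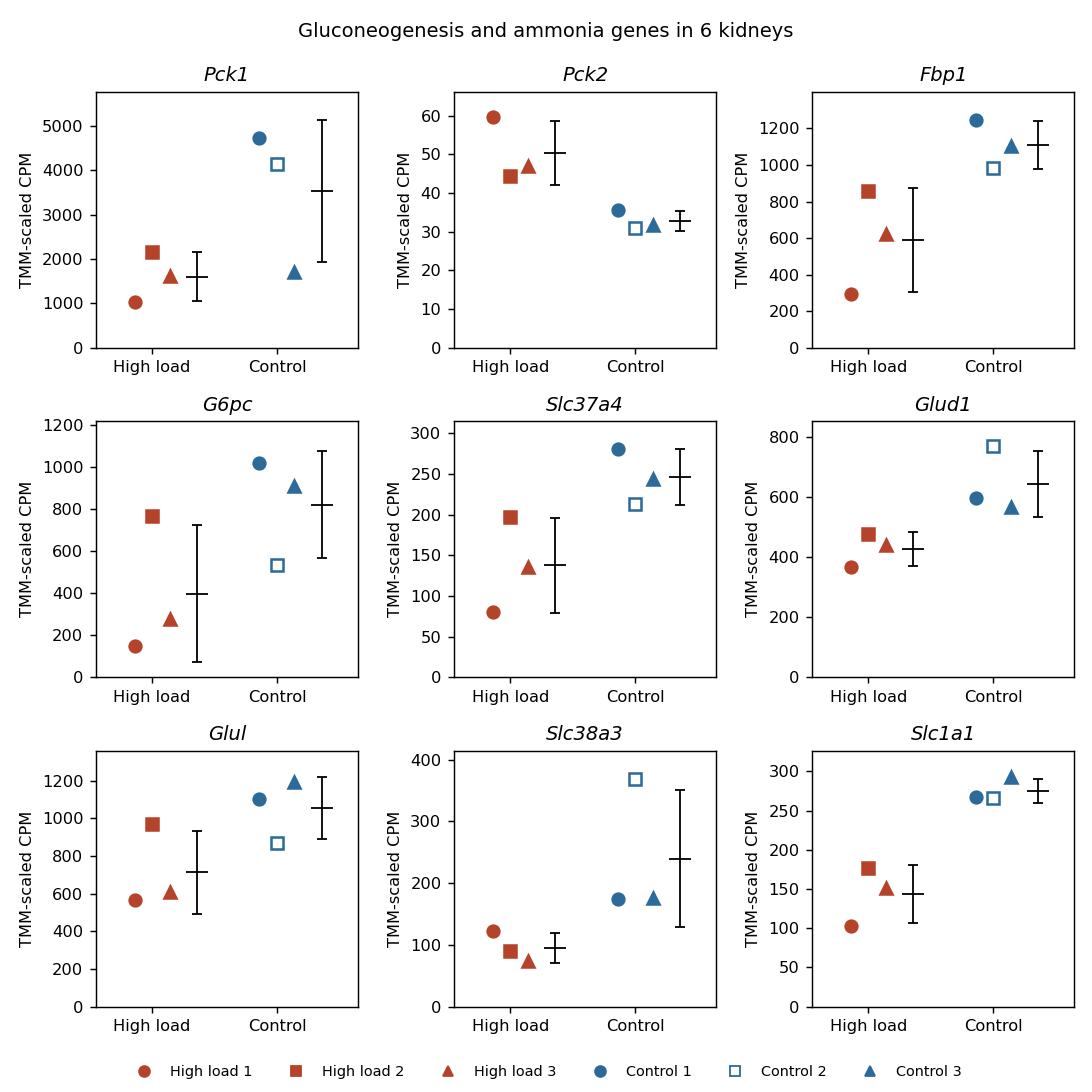
TMM-scaled CPM of the 9 genes in each kidney, high-load kidneys in red and controls in blue, with group mean and SD bars (n = 3 each); the open square is control 2. Pck2 was higher in each of the 3 high-load kidneys than in each control, and Fbp1, Slc37a4, Glud1, Slc38a3 and Slc1a1 were lower.

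Pck1 (ENSMUSG00000027513, chromosome 2, 173153048 to 173159273, plus strand, mm10) encodes the cytosolic phosphoenolpyruvate carboxykinase, the form that carries most renal gluconeogenesis. Levels are in CPM, counts scaled by library size and TMM factors. For Pck1 they were 1038, 2150 and 1629 CPM in high-load 1 to 3 and 4736, 4153 and 1718 CPM in control 1 to 3. Control 3 was well below the other 2 controls and below high-load 2, so the groups overlapped with or without control 2. The mean was 1606 ± 556 CPM in high-load kidneys and 3536 ± 1601 CPM in controls (SD, n = 3 each). The log2 fold change was -1.14 (SE 0.44, edgeR adjusted p 0.185), and -1.01 (SE 0.52) without control 2. Adipose tissue also expresses Pck1. The summed level of 4 adipocyte markers was 27.18, 11.02 and 0.668 CPM in high-load 1 to 3 and 1.05, 0.790 and 1.80 CPM in controls, and its part in the Pck1 values was not tested.

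Pck2 (ENSMUSG00000040618, chromosome 14, 55540266 to 55551242, plus strand) encodes the mitochondrial isoenzyme and is known in other cells as a target of the stress-response factor ATF4. It was at 59.8, 44.5 and 47.0 CPM in high-load 1 to 3 and at 35.7, 30.9 and 31.8 CPM in control 1 to 3. All 3 high-load kidneys were above all 3 controls. Means were 50.4 ± 8.22 CPM in high-load kidneys and 32.8 ± 2.57 CPM in controls (SD, n = 3 each). The log2 fold change was 0.62 (SE 0.13, edgeR adjusted p 0.0981), and 0.58 (SE 0.16) without control 2. Without high-load 2 the adjusted p was 0.0473. An exon of Gm10876 overlaps Pck2 on the opposite strand, and reads of the pair cannot be told apart if counting ignored strand.

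The balance of the isoenzymes was taken within each kidney as the log2 ratio of Pck1 over Pck2 CPM, which does not depend on library scaling. It was 4.12, 5.59 and 5.12 in high-load 1 to 3 and 7.05, 7.07 and 5.75 in control 1 to 3. The ratio was lower in every high-load kidney than in every control, although high-load 2 and control 3 were close. The difference of the means was -1.68, with a two-sided exact permutation p of 0.1, the smallest that 3 against 3 kidneys can give. Without control 2 it was -1.46 (exact permutation p of 0.2).

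Fbp1 (ENSMUSG00000069805, chromosome 13, 62864753 to 62888282, minus strand) encodes fructose bisphosphatase of liver and kidney. High-load 1 to 3 had 293, 858 and 621 CPM, and control 1 to 3 had 1248, 986 and 1102 CPM. No high-load kidney reached the lowest control, which was control 2, and high-load 1 was far below the others. The mean was 591 ± 284 CPM in high-load kidneys and 1112 ± 131 CPM in controls (SD, n = 3 each), a log2 fold change of -0.91 (SE 0.37, edgeR adjusted p 0.200). It was -0.99 (SE 0.44) without control 2 and -0.59 without high-load 1.

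G6pc (ENSMUSG00000078650, chromosome 11, 101367561 to 101377903, plus strand) encodes the catalytic subunit of glucose-6-phosphatase, which releases free glucose in the endoplasmic reticulum. Its level was 149, 764 and 277 CPM in high-load 1 to 3 and 1019, 531 and 908.5 CPM in control 1 to 3. The groups overlapped through control 2 alone, since high-load 2 lay between control 2 and the other 2 controls. Means were 397 ± 324 CPM in high-load kidneys and 820 ± 255 CPM in controls (SD, n = 3 each). The log2 fold change was -1.05 (SE 0.59, edgeR adjusted p 0.319), and -1.28 (SE 0.66) without control 2. Leaving out high-load 1 gave -0.65, and leaving out high-load 2 gave -1.94 (edgeR adjusted p 0.0521).

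Slc37a4 (ENSMUSG00000032114, chromosome 9, 44396852 to 44402968, plus strand) encodes the carrier that brings glucose 6-phosphate into the endoplasmic reticulum for G6pc. It had 80.4, 197 and 136 CPM in high-load 1 to 3 and 281, 213 and 244 CPM in control 1 to 3. The high-load kidneys were all below the controls, with high-load 2 close to control 2. Means were 138 ± 58.5 CPM in high-load kidneys and 246 ± 34.2 CPM in controls (SD, n = 3 each), a log2 fold change of -0.84 (SE 0.31, edgeR adjusted p 0.175). It was -0.93 (SE 0.36) without control 2 and -0.56 without high-load 1.

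**Figure D2:**
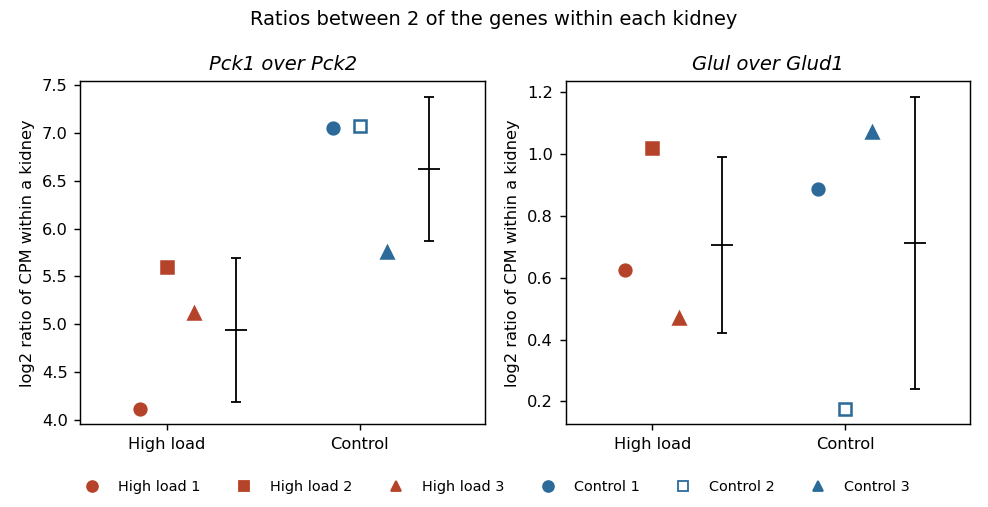
Log2 ratio of Pck1 over Pck2 CPM (left) and of Glul over Glud1 CPM (right) in each kidney, high-load kidneys in red and controls in blue, with group mean and SD bars (n = 3 each); the axes do not start at 0. The Pck1 over Pck2 ratio was 4.12 to 5.59 in high-load kidneys and 5.75 to 7.07 in controls, while the Glul over Glud1 ratios overlapped.

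Among the genes of glutamine and glutamate handling, all 4 had negative fold changes and 3 had groups that did not overlap. Slc38a3 (ENSMUSG00000010064, chromosome 9, 107650634 to 107669530, minus strand) encodes SNAT3, the basolateral glutamine transporter that is known to increase in the proximal tubule in acidosis. Its level was 122, 90.7 and 74.1 CPM in high-load 1 to 3 and 175, 369 and 176 CPM in control 1 to 3. Every high-load kidney was below every control, and control 2 was well above the other controls. The mean was 95.5 ± 24.2 CPM in high-load kidneys and 239.9 ± 112 CPM in controls (SD, n = 3 each). The log2 fold change was -1.33 (SE 0.34, edgeR adjusted p 0.117), and -0.88 (SE 0.21) without control 2.

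Slc1a1 (ENSMUSG00000024935, chromosome 19, 28835049 to 28913960, plus strand) encodes EAAC1, a sodium-driven carrier that takes up glutamate and aspartate from the tubule lumen. It stood at 103, 177 and 151 CPM in high-load 1 to 3 and at 268, 266 and 293 CPM in control 1 to 3. Controls lay close together, control 2 included, and all high-load kidneys were below them. Means were 144 ± 37.2 CPM in high-load kidneys and 275 ± 15.0 CPM in controls (SD, n = 3 each). The log2 fold change was -0.94 (SE 0.20, edgeR adjusted p 0.0981), and -0.96 (SE 0.24) without control 2. Without high-load 2 the adjusted p was 0.0369. An exon of 4430402I18Rik overlaps Slc1a1 on the opposite strand.

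Glud1 (ENSMUSG00000021794, chromosome 14, 34310727 to 34345265, plus strand) encodes glutamate dehydrogenase, the mitochondrial enzyme that frees ammonium from glutamate. Its level was 368, 478 and 440 CPM in high-load 1 to 3 and 596, 769.5 and 567 CPM in control 1 to 3. The groups did not overlap, and control 2 had the highest level. Means were 428 ± 55.9 CPM in high-load kidneys and 644 ± 109 CPM in controls (SD, n = 3 each). The log2 fold change was -0.59 (SE 0.18, edgeR adjusted p 0.136), and -0.44 (SE 0.17) without control 2.

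Glul (ENSMUSG00000026473, chromosome 1, 153899944 to 153909723, plus strand) encodes glutamine synthetase, which uses ammonium to form glutamine. It was at 566, 969 and 609 CPM in high-load 1 to 3 and at 1103, 869 and 1193 CPM in control 1 to 3. As for G6pc, the groups overlapped only through control 2, which was below high-load 2. Means were 715 ± 221 CPM in high-load kidneys and 1055 ± 167 CPM in controls (SD, n = 3 each), with a log2 fold change of -0.56 (SE 0.25, edgeR adjusted p 0.2298) that was -0.69 (SE 0.28) without control 2 and -0.84 without high-load 2. Mir8114 and Teddm2 overlap exons of Glul.

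The log2 ratio of Glul over Glud1 compares the enzyme that binds ammonium with one that frees it. It was 0.62, 1.02 and 0.47 in high-load 1 to 3 and 0.89, 0.18 and 1.07 in control 1 to 3. Control 2 had the lowest ratio of all 6 kidneys, and the groups overlapped. The means differed by -0.0072 (exact permutation p of 1), and by -0.28 without control 2 (exact permutation p of 0.3), a change that rests on that 1 library.

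**Figure D3:**
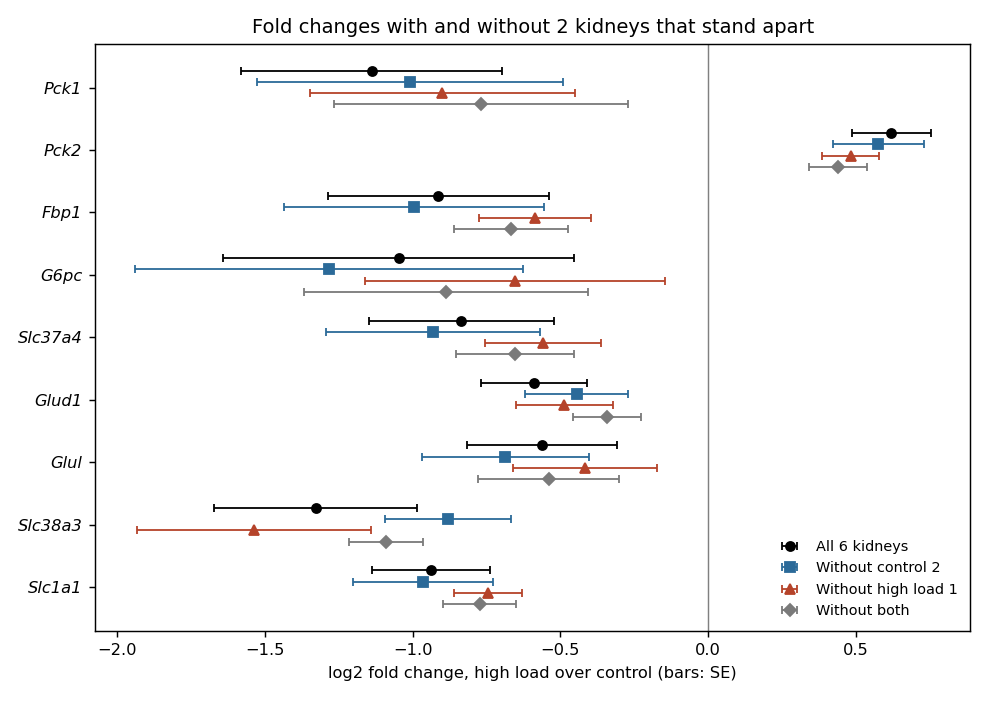
Log2 fold change, high load over control, of the 9 genes from edgeR with bars of 1 SE, for all 6 kidneys (black circles), without control 2 (blue squares), without high-load 1 (red triangles) and without both (grey diamonds). The 8 lower genes stayed below 0 and Pck2 above 0 in each of these fits, with Slc38a3 moving to -0.88 without control 2.

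Per kilobase of exon, Pck1 was the most abundant of the 9 transcripts in both groups and Pck2 the least abundant. Pck1 averaged 468 CPM per kilobase in high-load kidneys and 1031 in controls, whereas Pck2 averaged 6.46 in high-load kidneys and 4.20 in controls. In controls the order of the mean levels was Pck1, Fbp1, G6pc, Glul, Glud1, Slc37a4, Slc38a3, Slc1a1 and Pck2. Fbp1 averaged 347 CPM per kilobase in high-load kidneys and 654 in controls. G6pc averaged 164 in high-load kidneys and 339 in controls, and Glul 215 in high-load kidneys and 318 in controls. In high-load kidneys the mean of Glul was thus above that of G6pc, but the ranges of these neighbours over the kidneys overlapped in both groups. The ranges of Slc38a3 (mean 18.1 in high-load kidneys and 45.5 in controls) and Slc1a1 (17.4 in high-load kidneys and 33.3 in controls) also overlapped in both groups, as did those of Pck1 and Fbp1. Fbp1 and G6pc were apart in controls but overlapped in high-load kidneys, and the other neighbours in the order were apart in both groups.

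Other genes of the same pathways were taken from lists, which were chosen with earlier results of these data known. Genes are named from the 4 with the smallest p in each list. Of 26 other genes of glucose production and its substrates, 7 were lower and 0 higher at an unadjusted p under 0.05, with a median log2 fold change of -0.32. Over all genes 10.2% were lower and 14% higher. Without control 2 the counts were 5 lower and 1 higher, where 6.25% of all genes were lower and 9.84% higher. Gk, glycerol kinase, was at 250, 476 and 358 CPM in high-load 1 to 3 and 820, 789 and 705 CPM in control 1 to 3. Slc5a8, a sodium-driven lactate carrier, was at 40.1, 69.5 and 47.2 CPM in high-load kidneys and 100.2, 201 and 118 CPM in controls. Pcx, pyruvate carboxylase, which supplies oxaloacetate to the carboxykinases, was at 152, 326 and 236 CPM in high-load kidneys and 452, 653 and 424 CPM in controls. The groups overlapped for none of these 3. Their log2 fold changes were -1.09, -1.42 and -1.10, with edgeR adjusted p of 0.0998, 0.0999 and 0.126, and -1.08, -1.07 and -0.88 without control 2. Slc25a10, the mitochondrial dicarboxylate carrier, had a log2 fold change of -0.76 (edgeR adjusted p 0.150). Exons of Gm14764 overlap Gk and exons of Gm11788 overlap Slc25a10.

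Of 27 other genes of glutamine, glutamate and ammonium handling, 26 were tested, and 6 were lower and 2 higher at an unadjusted p under 0.05, with a median log2 fold change of -0.25. Leaving out high-load 1 gave a median of -0.15, and leaving out control 2 as well gave -0.054. As a share of the list the 2 higher genes were fewer than the 14% over all genes, while 10.2% of all genes were lower. Without control 2 the counts were 2 lower, near the 6.25% of all genes, and 3 higher, against 9.84%. Both of the higher genes in all 6 kidneys were plasma-membrane carriers of glutamine and other neutral amino acids. Slc38a1 was at 29.0, 16.3 and 27.0 CPM in high-load 1 to 3 and 7.54, 6.02 and 7.74 CPM in control 1 to 3. Slc1a5 was at 161, 138 and 161 CPM in high-load kidneys and 98.1, 78.1 and 88.3 CPM in controls. For both carriers all high-load kidneys were above all controls. Log2 fold changes were 1.76 for Slc38a1 and 0.80 for Slc1a5, with edgeR adjusted p of 0.0784 and 0.0919, and 1.655 and 0.72 without control 2. Slc25a13, a mitochondrial aspartate and glutamate carrier, averaged 81.9 ± 7.22 CPM in high-load kidneys and 116.8 ± 4.99 CPM in controls (SD, n = 3 each), a log2 fold change of -0.51 (edgeR adjusted p 0.0946). Gpt, an alanine aminotransferase, had a log2 fold change of -1.14 (edgeR adjusted p 0.136) that was -0.67 without control 2.

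Of 24 regulators of these pathways, 8 were lower and 2 higher at an unadjusted p under 0.05, with a median log2 fold change of -0.27 (-0.18 without high-load 1). Over all genes 10.2% were lower and 14% higher. Without control 2 the counts were 4 lower, against 6.25% of all genes, and 0 higher, against 9.84%. Ppara, a fatty-acid-sensing nuclear receptor, averaged 13.95 ± 3.33 CPM in high-load kidneys and 33.8 ± 9.98 CPM in controls (SD, n = 3 each), a log2 fold change of -1.28 (edgeR adjusted p 0.0967). Foxo3, a forkhead factor held back by insulin, had a log2 fold change of -0.60 (edgeR adjusted p 0.111). Cryz, a quinone reductase that also binds RNA, had a log2 fold change of -0.70 (edgeR adjusted p 0.127). Each of these 3 regulators was lower in all high-load kidneys than in all controls. Exons of Cryz overlap those of Tyw3 on the opposite strand.

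**Figure D4:**
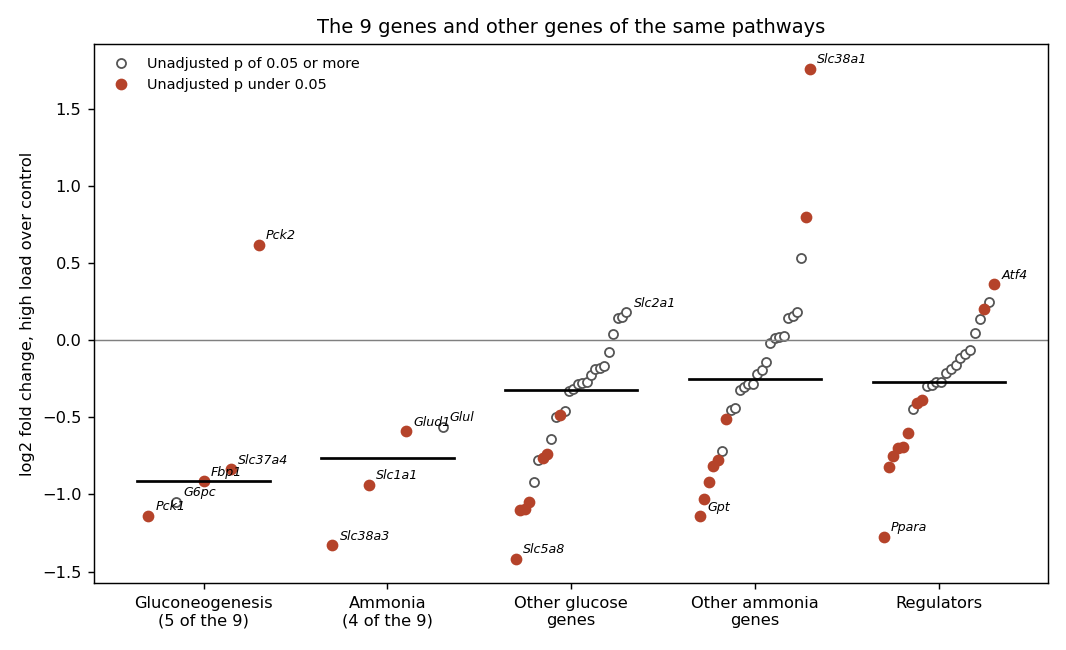
Log2 fold change, high load over control, of the 9 genes in their 2 roles, of 26 other glucose genes, 26 other ammonia genes and 24 regulators; filled points have an unadjusted edgeR p under 0.05, and bars are medians. Of the 9 genes Pck2 lay above 0. Of the others, 4 glucose genes, 9 ammonia genes (Slc38a1 at 1.76 among them) and 5 regulators did. The medians of the 3 lists of other genes were -0.32, -0.25 and -0.27, of which that of the ammonia genes was -0.054 without control 2 and high-load 1.

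Most of the 9 transcripts are known from the proximal tubule, and markers of that segment were lower in the same kidneys. All 10 general proximal tubule markers had negative fold changes, with a median log2 fold change of -0.83 that was -0.92 without control 2 and -0.46 without high-load 1. Of the 10, 3 were lower at an unadjusted p under 0.05 (10.2% of all genes were), and 1 was without control 2 (6.25% of all genes were). Of these markers, 4 were lower without high-load 1 (8.09% of all genes were), and 7 with both libraries left out (7.71% were). Their summed level was 4720, 13508 and 10074 CPM in high-load 1 to 3 and 16459, 17929 and 18210 CPM in control 1 to 3. The mean log2 level of these markers, relative to the mean of the controls, was -1.80, -0.34 and -0.69 in high-load 1 to 3 and -0.06, -0.04 and 0.10 in control 1 to 3. The mean of the 9 genes on this scale was -1.19, -0.37 and -0.83 in high-load 1 to 3 and 0.11, 0.00080 and -0.11 in control 1 to 3. High-load 1 was the lowest and high-load 2 the least low of the high-load kidneys in both. Markers of other tubule segments went both ways. The median log2 fold change was 0.28 for 5 principal cell markers, 2 of them below 0 (-0.038 without high-load 1). It was 0.49 for 6 intercalated cell markers, 2 of them below 0 (0.36 without high-load 1). The mean log2 levels of both lists overlapped between the groups. Distal convoluted tubule and thick ascending limb markers had negative medians. The mean log2 level of 4 distal convoluted tubule markers was -2.23, -0.29 and -0.61 in high-load 1 to 3 and 0.26, -0.23 and -0.02 in control 1 to 3, with a median log2 fold change of -0.52 and 4 of 4 below 0. Of 5 thick ascending limb markers 3 were below 0, with a median of -0.42 (-0.19 without control 2).

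Relative to the mean of the 10 proximal tubule markers in the same kidney, the 8 lower genes had differences of -0.38 (G6pc) to 0.36 (Glud1) on the log2 scale, and the groups overlapped for all 8. Their exact permutation p-values were 0.4 to 1. Pck1 differed by -0.13 (exact permutation p of 0.9), Fbp1 by -0.096 (p of 0.6), Slc38a3 by -0.32 (p of 0.6) and Slc1a1 by -0.027 (p of 1). For Pck1, Fbp1, Slc37a4, Slc38a3 and Slc1a1 the sign of the difference turned when some single libraries were left out. Without high-load 1, Slc38a3 was at -0.94, and without high-load 2, G6pc was at -0.71 and Glud1 at 0.58, so the sizes also rest on single libraries. Pck2 differed in the other direction. It was at -2.55, -4.42 and -3.997 in high-load 1 to 3 and at -5.03, -5.25 and -5.35 in control 1 to 3, with no overlap. The difference was 1.55, with an exact permutation p of 0.1, the smallest possible here. It was 1.53 without control 2, 0.999 without high-load 1, the kidney with the lowest tubule markers, and 1.94 without high-load 2. Every high-load kidney was above every control for Pck2 itself (log2 fold change 0.62) and below every control for the marker mean. The lack of overlap and the exact permutation p were fixed by these 2 results and are no separate test. The difference holds the change of the markers as well as that of Pck2. Whether the tubule markers differ through cell number or through RNA per cell was not tested.

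**Figure D5:**
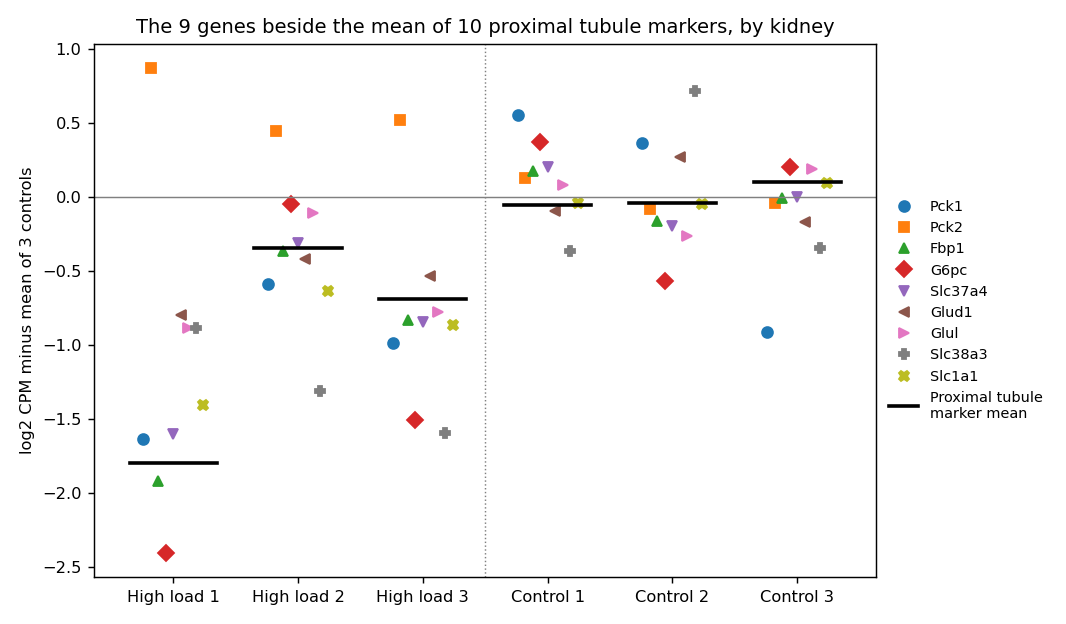
Log2 CPM of each of the 9 genes minus its mean over the 3 controls, by kidney, with the mean of 10 proximal tubule markers on the same scale as a black bar. Pck2 lay above the bar in each high-load kidney, while the other 8 genes spread around bars at -1.80, -0.34 and -0.69.

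Of the tubule markers, the endocytosis receptor Lrp2 was at 514, 1938 and 1429 CPM in high-load 1 to 3 and 2291, 1606 and 2864 CPM in control 1 to 3, so that its groups overlapped through control 2. For 6 of the 10 general proximal tubule markers every high-load kidney was below every control, as for 15.8% of all genes. Some markers of other cell states and types were higher in high-load kidneys. Of 5 markers of injured tubule, 4 were higher at an unadjusted p under 0.05 (14% of all genes were), with summed levels of 3717, 1668 and 3432 CPM in high-load 1 to 3 and 746, 454 and 493 CPM in control 1 to 3. Of 5 macrophage markers 4 were higher at an unadjusted p under 0.05, and 1 had a negative fold change. Without control 2, 3 were higher (9.84% of all genes were) and 1 was lower (6.25% were). The macrophage markers summed to 428, 292 and 325 CPM in high-load kidneys and 239, 159 and 254 CPM in controls. Lymphocyte markers summed to 106, 27.0 and 14.5 CPM in high-load kidneys and 17.3, 8.63 and 13.1 CPM in controls. Their sums overlapped between the groups. At an unadjusted p under 0.05, 1 of 4 was higher, against 14% of all genes, and 0 without control 2, against 9.84%. The part of these cells in the levels of the 9 genes was not tested.

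The 9 genes differed among themselves in their pattern over the 6 kidneys. Likeness was measured as the root mean square distance between log2 profiles, each taken relative to its control mean. Fbp1 and Slc37a4 were the closest pair (0.132), followed by Slc37a4 with Slc1a1 (0.198) and Fbp1 with Slc1a1 (0.258), while Pck2 and G6pc were the farthest apart (1.60). Over 11683 genes compared with the mean profile of the 9, the nearest were Slc46a3 (0.0662), Mttp (0.0683), Acot4 (0.0776) and Tnfrsf21 (0.0792). These distances rest on 6 libraries and carry no test.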

How the data were processed

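The authors deposited raw gene counts under Ensembl IDs, as 1 table with a column for each of 6 kidneys. The submitters' processing notes list HISAT2 2.2.1 and featureCounts 2.0.1 beside fastp 0.23.2, SAMtools 1.11, edgeR and build mm10. Not given in the sources used here are the annotation, strand setting and treatment of reads with several matches, which makes counts of overlapping genes and near-identical copies uncertain. Symbols and positions came from GENCODE M21 (32158 of 32285 IDs matched), and CPM per kilobase uses all exon bases of a gene.

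The groups were compared with edgeR 4.0.16 in R 4.3.3: genes were filtered with filterByExpr (minimum count 10) and scaled with TMM. The quasi-likelihood model was robust and had group as its only term. Tests were two-sided, p-values were adjusted by Benjamini-Hochberg across the 15955 genes, and the threshold was 0.05. On simulated counts for this comparison and 15955 genes, edgeR found 6% of the genes altered 1.5-fold and 60% of those altered 2-fold, and 13 of its 139 calls were false. Log2 ratios used a prior count of 0.5 and exact permutation of the 6 libraries. Titles gave groups and replicate numbers, and the genotype labels gave the loads. No label says that same-numbered kidneys belong together, and their deviations from the group means correlated at 0.125, -0.172 and 0.0477. Nothing but the labels shows that the kidneys of a group came from separate animals, so p-values measure the spread between these samples. Libraries of a group had a chi-square per degree of freedom of 20.0 to 93.1, far over counting noise, so none was counted as a repeat.

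The 9 genes and the lists of pathway genes and markers were chosen with earlier results of these data known. Named beside the 9 genes are the 4 genes with the smallest p of each pathway list and the 5 genes nearest in profile with a mean of at least 5 CPM; 1 gene that these rules take is not reported here. Alternatives were other scaling, no filter on low counts, DESeq2 1.42.0, limma-voom (limma 3.58.1), no robust estimation, a replicate block, a fit on mutation load in percent, mitochondrially encoded genes left out and each library left out. Leaving out control 2 and high-load 1 together was chosen after seeing the data.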

Additional observations from a re-analysis of the deposited data

Results flagged for a closer look

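Control 2 had 3210 counts of the Y-linked genes Ddx3y, Eif2s3y, Kdm5d and Uty, against 0 counts in the other 5 libraries, in genes outside the comparison of the 9. It is the library through which the high-load and control ranges of G6pc and Glul overlapped, and the one with the highest Slc38a3 and Glud1. G6pc was at 149, 764 and 277 CPM in high-load 1 to 3 and at 531 CPM in control 2, and Slc38a3 was at 122, 90.7 and 74.1 CPM in high-load 1 to 3 and at 369 CPM in control 2. Whether this library came from a male or from another animal than its label gives was not tested, and its control label and load of 5% rest on that label.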

How the results depend on the processing

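Of 357 alternative values of 33 results, 316 were labelled the same, 7 newly passed the threshold, 0 lost it, 19 moved and 15 changed sign. No gene could lose the threshold, since 0 of the 9 passed it in the main fit. The same meant equal sign and call for a fold change, and equal sign only for a ratio or a level relative to markers. For a count it meant a value within 1.5-fold, and for a median a shift smaller than the SD between kidneys. The 9 log2 fold changes kept their sign under every alternative. With DESeq2, 5 of the 9 genes passed, at log2 fold changes of -1.15 for Pck1, 0.61 for Pck2, -0.60 for Glud1, -1.34 for Slc38a3 and -0.95 for Slc1a1. With 1 library left out, 0 to 2 of the 9 passed (2 without high-load 2, where 4.96% of all genes passed), with Pck2 at 0.48 to 0.70 and Slc1a1 at -1.11 to -0.75, and 3 to 8 were lower at an unadjusted p under 0.05 (8 without high-load 2, against 13.2% of all genes, 3 without control 1, against 7.1%, and 3 without high-load 3, against 6.15%). The replicate block gave 3 in place of 6, against 10.1% of all genes. With 1 library left out, the log2 ratio of Glul over Glud1 differed by -0.28 to 0.17. Relative to proximal tubule markers, the differences were then 0.999 to 1.94 for Pck2, -0.71 to -0.16 for G6pc, 0.040 to 0.58 for Glud1, 0.073 to 0.57 for Glul, -0.63 to 0.18 for Pck1, -0.16 to 0.019 for Fbp1, -0.060 to 0.15 for Slc37a4, -0.94 to 0.057 for Slc38a3 and -0.23 to 0.11 for Slc1a1, which was at 0.045 against markers of tubule segments. Those segment markers include Slc7a13, at 118 CPM in control 2 and 0.142 to 1.31 CPM elsewhere. In the other pathway genes the lower count with 1 library left out was 4 to 11 for glucose (0 to 1 higher; 4 without control 1 or high-load 3, 11 without high-load 2), 2 to 7 for ammonia (2 without control 2, 3 without high-load 3) and 4 to 12 for regulators (0 to 2 higher; 4 without control 2, 12 without high-load 2). Without control 2 and high-load 1 together, regulators had 5 lower and 0 higher, with a median of -0.15, and the ammonia genes had a median of -0.054. Scaling by library totals moved the median of all genes to 0.13 and that of the 9 genes to -0.83. The causes were not tested. With 3 kidneys a group, changes near 1.5-fold were seldom recovered in simulated counts.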
